A study of Mus musculus with 6 samples.

Results

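The EGF family of growth factors and their ErbB receptors were followed in parietal cells, which secrete the acid of the stomach, from mice that express noggin in these cells and from control mice. The members, chosen by gene symbol, are 7 ligand genes (Areg, Egf, Tgfa, Hbegf, Btc, Ereg and Nrg1) and 3 receptor genes (Egfr, Erbb2 and Erbb3). All 10 members were found among the 23284 genes of the deposited table. In the noggin mice the H+/K+ ATPase promoter, active in parietal cells, drove a transgene encoding noggin, which blocks bone morphogenetic proteins (BMPs) outside the cell. These mice also carried H+/K+-Cre and the Rosa26-tdTom reporter (genotype label Transgenic-Tom-nog). The control mice are labelled Transgenic-Tom, a genotype that names no noggin transgene, and both groups shared the red fluorescent protein tdTomato by which the cells were sorted by flow cytometry. There were 3 biological replicate libraries in the noggin group and 3 in the control group. The labels do not state age, sex or how many animals made up a replicate. A p-value therefore sets a group difference only against the spread among these libraries.

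EGF family ligands are made as membrane-anchored precursors, and proteases of the ADAM family release them from the cell surface. The released ligands bring ErbB receptors together in pairs, and the pairs signal through the RAS-ERK and PI3K pathways to growth, survival and feedback genes. In the stomach, parietal cells are a known source of several of these ligands, and EGF receptor signalling is known to promote the growth of surface mucous cells and to restrain acid secretion.

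Values are FPKM as the authors deposited them, that is, fragment numbers divided by transcript length and by the total mapped in the library, and the read depth of the libraries is unknown. Total FPKM ran from 797168 to 1188186 in noggin libraries and from 595736 to 669124 in control libraries. Noggin replicate 3 stood apart, with 542 tested genes listed at 0, against 19 to 34 in each of the other 5 libraries. The labels were checked on noggin itself: Nog was at 2281 to 2734 FPKM in noggin libraries and at 0.871 to 1.97 FPKM in control libraries. All 10 parietal cell markers were detected in both groups, and their summed level, most of it Atp4b, was 28529 to 31803 FPKM in noggin libraries and 32524 to 39625 FPKM in control libraries. Of these 10 markers, 4 were called lower in noggin libraries by the limma test described below for the members (Slc26a7 at -1.41, Slc4a2 at -1.09, Hip1r at -1.15 and Esrrg at -1.19 on the log2 scale), and 0 were called higher. These 4 values stayed negative with the length trend of each library removed, at -0.90 to -0.60, where 0 of the 4 passed. The proton pump subunit Atp4a, at -1.21, did not pass (limma adjusted p = 0.124), with no overlap between groups. Its partner subunit Atp4b went the other way, at 0.22, and did not pass either (limma adjusted p = 0.814). Every noggin library lay above every control library for Atp4b, narrowly, at 21468 FPKM or more against 21417 FPKM or less. The sorted fraction was not free of other transcripts: 6 chief cell markers summed to 131323 to 357848 FPKM in noggin libraries and to 60942 to 112019 FPKM in control libraries. Most of these sums was Clps, with no overlap between groups, and Pgc, with overlap. Of the 6 markers 0 were called higher and 0 lower. Log2 fold changes were also related to transcript length across 10541 genes, with a Spearman correlation of -0.554 over genes that are not independent replicates.

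Of the 10 members, 8 reached at least 1 FPKM in at least 3 libraries and were tested. Areg was called higher in noggin libraries, 0 members were called lower, and 7 tested members did not pass (limma on log2(FPKM + 1), Benjamini-Hochberg adjusted p under 0.05 over 10644 genes). Across all tested genes 1.75% were called higher and 0.695% lower, while an unadjusted p under 0.05 was reached by 4 of the 8 tested members and by 26.7% of all tested genes. The 4 members were Areg, which was higher, and Egf, Erbb2 and Erbb3, which were lower in every noggin library than in any control library. In these 4 members the groups did not overlap, as was the case for 38.3% of all tested genes. The median log2 fold change was 0.21 over the 8 tested members and -0.03 over all tested genes.

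**Figure D1:**
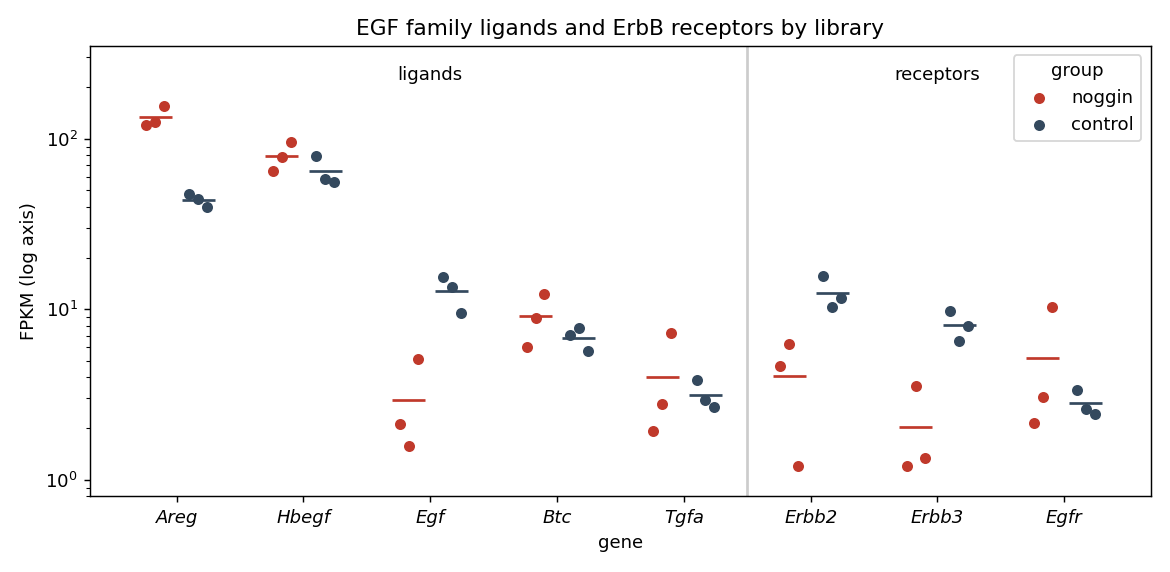
FPKM on a log axis (vertical) of the 8 tested members (horizontal, ligands left and receptors right) in 3 noggin libraries (red) and 3 control libraries (dark). Points are libraries and short lines are group means, and a reader should see Areg above and Egf, Erbb2 and Erbb3 below their control values with no overlap.

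Among the ligands, Areg, which encodes amphiregulin, a ligand of the EGF receptor, was the one member that rose. It was at 121, 125 and 155 FPKM in the noggin libraries (replicates 1 to 3), against 47.4, 44.5 and 39.6 FPKM in the control libraries. Every noggin library lay above every control library, and the lowest noggin value was well above the highest control value. The means were 134 ± 18.6 FPKM in noggin libraries and 43.8 ± 3.97 FPKM in control libraries (SD, n = 3 each), a 3.05-fold higher level. The log2 fold change was 1.58 (SE 0.183, limma adjusted p = 0.0151), and an exact two-sided permutation test returned p = 0.1, which is the lowest value attainable with groups of 3. In these bulk samples a difference in the number of cells of a type and one in RNA per cell cannot be told apart.

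The call of Areg depended on scaling, on the filter and on single control libraries, while its direction did not. Without a filter its log2 fold change of 1.58 was not called (limma adjusted p = 0.0551). With every library rescaled to the same total FPKM the log2 fold change was 0.88 (SE 0.243, limma adjusted p = 0.0530), at a median of -0.63 over all tested genes. With the length trend of each library removed it was 1.10 (SE 0.197, limma adjusted p = 0.0568), and the Areg transcript is short, at 1215 bases. Without control replicate 1, 2 or 3 it was 1.64, 1.60 and 1.51 (limma adjusted p = 0.0917, 0.0588 and 0.128). Without noggin replicate 3, the library that stood apart, Areg was still called at 1.47 (limma adjusted p = 0.0244).

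Markers of some other cell types differed between groups, as did Areg and the other members that stood apart. Mast cells are known as another source of amphiregulin, and 5 of 7 tested mast cell markers rose while Kit, the stem cell factor receptor, fell. Without Kit the other 7 markers of that list summed to 175 to 276 FPKM in noggin libraries and to 4.93 to 25.4 FPKM in control libraries. Leukocyte markers summed to 36.05 to 267 FPKM in noggin libraries and to 6.26 to 7.60 FPKM in control libraries, with 1 of 4 tested markers called higher and Cd3e, Cd79a, Itgam and Csf1r under 1 FPKM in all libraries. In noggin replicate 3, the library with the highest sum, 182 FPKM of it was Cd74, which was not called (limma adjusted p = 0.124). All 5 tested mucous neck cell markers rose, of which 2 were called after rescaling and 3 with the length correction. The list summed to 10766 to 25864 FPKM in noggin libraries and 2456 to 3363 FPKM in control libraries, most of it Tff2. Of 6 tested enteroendocrine markers 2 rose, Ghrl at 3.97 and Chga at 2.91 on the log2 scale (limma adjusted p = 0.0159 and 0.0312). The 7 markers of that list summed to 1893 to 28596 FPKM in noggin libraries and to 441 to 2679 FPKM in control libraries, with overlap. In noggin replicates 2 and 3 most of the sum was Gast, which was not called (limma adjusted p = 0.644). Gast was at 22.3, 26026 and 14693 FPKM in noggin libraries and at 203, 387 and 2226 FPKM in control libraries. Along with these rises, the 4 parietal cell markers named above were called lower, and 0 of the 4 passed with the length correction. Atp4a and Atp4b of the same list were not called, at -1.21 and 0.22. Egf, Erbb2 and Erbb3 were lower in every noggin library but did not pass the test. Other lists held no call. Of 6 surface pit cell markers 0 were called, with overlapping sums of 23120 to 49769 FPKM in noggin libraries and 21973 to 26259 FPKM in control libraries. Of the 6 chief cell markers 0 were called as well. The part of any of these cells in the results for Areg, Egf, Erbb2 and Erbb3 was not tested.

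Promoter windows of Areg and Egf, the ligands that stood furthest apart between groups in either direction, were taken from RefSeq (GRCm38.p6, the assembly of mm10). They ran from 250 bases before the gene start to 50 bases from it on, on the gene's strand. Areg lies on chromosome 5 (gene 91139599 to 91148432, plus strand, promoter window chr5:91139349-91139648), and Egf lies on chromosome 3 (gene 129677565 to 129755316, minus strand, window chr3:129755273-129755572). Gene spans are those of GENCODE and windows are set from the RefSeq start, which for Egf is 129755322. RefSeq held 2 windows for Egf, and the one whose position is given is that nearest the GENCODE start. The windows were searched for matches, on either strand, to any of 4 motifs: the cyclic AMP response element TGACGTCA, the AP-1 site TGANTCA, the GC-rich Smad motif GGCGCC and the TATA motif TATAAA.
Areg: 91139599
Egf: 129755322
The Areg window held TGACGTCA, beginning 61 bases before the gene start, and TATAAA, beginning 31 bases before it. TGACGTCA was present in 1.79% and TATAAA in 13.6% of 32851 promoter windows of the same length. TGANTCA, found in 7.81% of windows, and GGCGCC, found in 11.9%, were not among the letters of the Areg window, and none of the 4 motifs was in either of the 2 Egf windows. These matches describe the sequence and are not evidence that a factor binds there.

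Egf, which encodes epidermal growth factor itself, was at 2.12, 1.58 and 5.12 FPKM in the noggin libraries (replicates 1 to 3), against 15.5, 13.5 and 9.51 FPKM in the control libraries. The highest noggin library, replicate 3, remained below the lowest control library. The means were 2.94 ± 1.91 FPKM in noggin libraries and 12.8 ± 3.04 FPKM in control libraries (SD, n = 3 each). At -1.89, its log2 fold change did not pass the test (SE 0.404, limma adjusted p = 0.0612). Without noggin replicate 3 it was -2.26 and without noggin replicate 2 it was -1.64, and both passed (limma adjusted p = 0.0220 and 0.0421). In those settings 280 and 825 of the 10644 tested genes were called lower, against 74 with all libraries. After the length correction Egf was at -1.60 (limma adjusted p = 0.142), with a transcript length of 3346 bases.

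Hbegf, which encodes heparin-binding EGF-like growth factor, was abundant in both groups and the groups overlapped. It was at 64.5, 78.3 and 95.1 FPKM in the noggin libraries (replicates 1 to 3), against 79.5, 58.1 and 55.8 FPKM in the control libraries. Its log2 fold change was 0.29 (SE 0.226, limma adjusted p = 0.422), and it turned to -0.41 after rescaling and to -0.047 after quantile normalization. The ratio of Areg to Hbegf within a library does not depend on the scaling of that library, but it is not free of the length trend, since the Hbegf transcript, at 2375 bases, is longer than that of Areg. After the length correction the log2 fold change was 0.33 for Hbegf, beside 1.10 for Areg. Without that correction the ratio was 1.88, 1.60 and 1.63 in noggin replicates 1, 2 and 3, and 0.596, 0.766 and 0.709 in control replicates 1, 2 and 3. Areg thus exceeded Hbegf per transcript length in every noggin library and was below it in every control library.

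The remaining ligands were lower in abundance. Btc, which encodes betacellulin, was at 6.01, 8.86 and 12.3 FPKM in noggin libraries and at 7.03, 7.72 and 5.70 FPKM in control libraries. Tgfa, which encodes transforming growth factor alpha, was at 1.92, 2.78 and 7.23 FPKM in noggin libraries and at 3.84, 2.92 and 2.66 FPKM in control libraries. Their groups overlapped, and their log2 fold changes were 0.32 for Btc (SE 0.327, limma adjusted p = 0.543) and 0.13 for Tgfa (SE 0.435, limma adjusted p = 0.867). For Tgfa the positive sign came with noggin replicate 3, and without that library the value was -0.31. Ereg, which encodes epiregulin, was listed at no more than 0.0449 FPKM in noggin libraries and 0.0300 FPKM in control libraries. Nrg1, which encodes neuregulin 1, a ligand of ErbB3 and ErbB4, was listed at no more than 0.190 FPKM in noggin libraries and 0.108 FPKM in control libraries. Both were listed at 0 in at least 1 library of each group and were not tested. Areg, Ereg and Btc lie in 1 cluster on chromosome 5 (mm10), with Ereg at 91074622 to 91093646, Areg between and Btc at 91357261 to 91402994. Neighbours in this cluster differed in level, from Ereg near 0 to Areg, the most abundant member in noggin libraries.

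The 7 ligands were also summed within each library, as a description with no test. The summed FPKM was 196, 217 and 275 in noggin replicates 1, 2 and 3, and 153, 127 and 113 in control replicates 1, 2 and 3. The groups did not overlap on this scale, but with libraries rescaled to the same total FPKM they did, with sums of 139.6, 229.6 and 195 FPKM for noggin replicates 1 to 3, against 205, 160.1 and 161 FPKM for control replicates 1 to 3. Areg made up 56.4% to 61.8% of this sum in noggin libraries and 30.9% to 35.1% in control libraries. Hbegf made up 33.0% to 36.1% in noggin libraries and 45.8% to 51.8% in control libraries. The share of Egf was 0.727% to 1.86% in noggin libraries and 8.39% to 10.6% in control libraries. Btc and Tgfa overlapped between groups in level. The share of Btc did not overlap, at 3.07% to 4.49% in noggin libraries and 4.59% to 6.09% in control libraries. The share of Tgfa did, at 0.982% to 2.63% in noggin libraries and 2.30% to 2.50% in control libraries. The order of the leading pair was reversed between groups, with Areg first in noggin libraries and Hbegf first in control libraries, and the 2 genes did not overlap within either group. This order is that of the deposited FPKM and was not recomputed with the length trend removed.

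**Figure D2:**
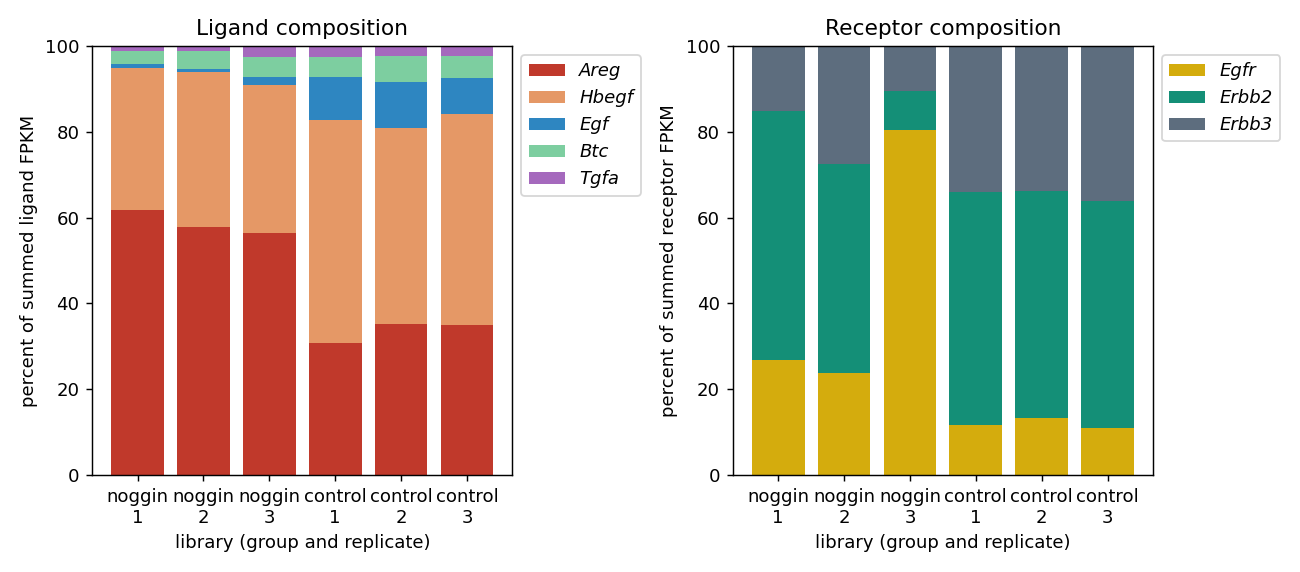
Percent of the summed FPKM (vertical) that each ligand (left panel) and each receptor (right panel) contributed in each of the 3 noggin and 3 control libraries (horizontal); Ereg and Nrg1 are too low to show. Areg covers 56.4% to 61.8% of ligand FPKM in noggin libraries and 30.9% to 35.1% in control libraries, and Egfr covers 80.3% of receptor FPKM in noggin replicate 3.

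Among the receptors, Erbb2 and Erbb3 were below every control value in all 3 noggin libraries, and Egfr overlapped between groups. Erbb2 (chromosome 11, 98412470 to 98437716) encodes a receptor with no known ligand of its own that serves as a partner of the other ErbB receptors. It was at 4.67, 6.24 and 1.20 FPKM in the noggin libraries (replicates 1 to 3), against 15.6, 10.3 and 11.7 FPKM in the control libraries. At -1.57, the difference on the log2 scale did not pass (SE 0.474, limma adjusted p = 0.107), and the lowest value was that of noggin replicate 3. Without that library it was -1.05 (SE 0.244, limma adjusted p = 0.0594), and without noggin replicate 2 it was -1.92 and passed (limma adjusted p = 0.0425). Without noggin replicate 2, 825 of the 10644 tested genes were called lower, against 74 with all libraries.

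Erbb3 (chromosome 10, 128567523 to 128589652) encodes a receptor with little kinase activity of its own that binds neuregulins. It was at 1.21, 3.55 and 1.34 FPKM in the noggin libraries (replicates 1 to 3), against 9.79, 6.54 and 7.98 FPKM in the control libraries. Its log2 fold change, -1.65, did not pass (SE 0.381, limma adjusted p = 0.0695). It passed without noggin replicate 2, at -1.99 (limma adjusted p = 0.0192), a setting in which 825 of the 10644 tested genes were called lower. The means were 2.03 ± 1.31 FPKM in noggin libraries and 8.11 ± 1.63 FPKM in control libraries (SD, n = 3 each).

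Egfr (chromosome 11, 16752203 to 16918158), which encodes the EGF receptor that binds amphiregulin, EGF and TGF-alpha, was at 2.15, 3.06 and 10.4 FPKM in the noggin libraries (replicates 1 to 3), against 3.38, 2.61 and 2.42 FPKM in the control libraries. Noggin replicate 3 alone lay above the control range, replicate 2 lay within it and replicate 1 just below it. The log2 fold change was 0.48 (SE 0.500, limma adjusted p = 0.562), and without noggin replicate 3 it was -0.080. Egfr was 26.7%, 23.8% and 80.3% of summed receptor FPKM in noggin replicates 1, 2 and 3 and 10.9% to 13.4% in control libraries. The higher share in noggin replicates 1 and 2 was found beside lower Erbb2 and Erbb3. The Egfr level was within the control range in replicate 2 and just below it in replicate 1.

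Scaling and length bore on the receptors as on the ligands. After rescaling, Egf, Erbb2 and Erbb3 were called lower, at -2.50, -2.15 and -2.18 (limma adjusted p = 0.0229, 0.0434 and 0.0377), where 7.70% of all tested genes were called lower and 1.22% higher. After the length correction Erbb2 was at -1.07 (limma adjusted p = 0.280) and Erbb3 at -1.11 (limma adjusted p = 0.186), and their transcripts are long, at 5012 and 6016 bases. The summed ligand FPKM was 24.4, 16.9 and 21.3 times the summed receptor FPKM in noggin replicates 1, 2 and 3, and 5.34, 6.53 and 5.14 times in control replicates 1, 2 and 3. This ratio is free of library scaling but not of the length trend.

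**Figure D3:**
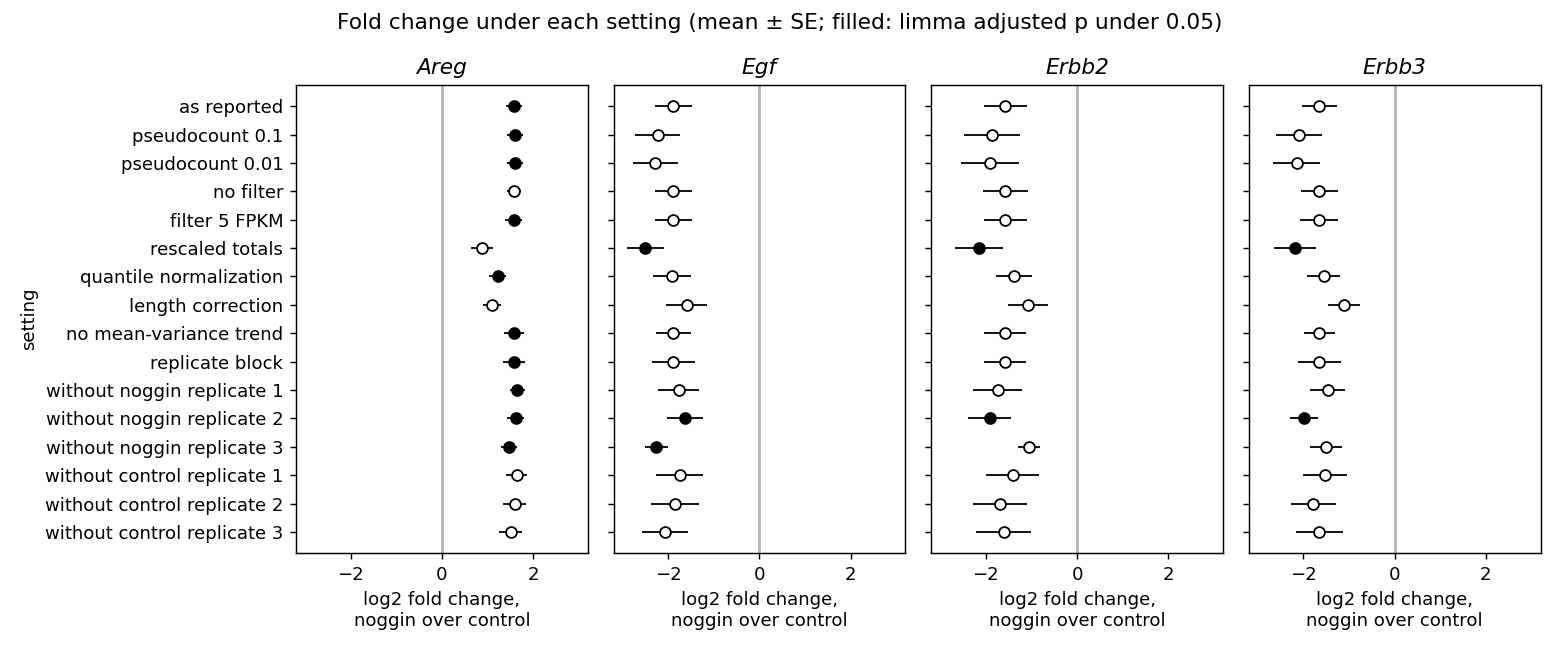
Log2 fold change of noggin over control (horizontal, ± SE from limma) of Areg, Egf, Erbb2 and Erbb3 under the setting reported and each alternative (vertical), with filled points for a limma adjusted p under 0.05. Areg runs from 0.88 to 1.65, Egf from -2.50 to -1.60, Erbb2 from -2.15 to -1.05 and Erbb3 from -2.18 to -1.11, with no change of sign.

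The order of the member levels differed between groups at the top. In noggin libraries Areg (134 ± 18.6 FPKM) stood first and Hbegf (79.3 ± 15.3 FPKM) next, and the other 6 tested members averaged 2.03 to 9.07 FPKM, with overlapping values between neighbours in the order. In control libraries Hbegf (64.5 ± 13.1 FPKM) came first and Areg next, followed by Egf (12.8 ± 3.04 FPKM) and Erbb2 (12.5 ± 2.75 FPKM), which did not differ beyond their spread. Erbb3 and Btc overlapped in control libraries, and so did Tgfa and Egfr. The noggin libraries were the more variable: the ratio of the highest to the lowest library was wider in noggin than in control libraries for all 8 tested members. Noggin replicate 3 was the highest noggin library for 6 of the 8, all but Erbb2 and Erbb3.

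The genes whose log2(FPKM + 1) was most like Areg over the 6 libraries, among 6787 genes averaging at least 5 FPKM, were Stoml2, Flot1, Ebpl, Lgmn and Ifitm2, with Pearson correlations of 0.995 to 0.998. Such likeness was common, since 190 of these genes had a correlation over 0.95. Ifitm2, an interferon-induced membrane protein, was at 127, 109 and 166 FPKM in the noggin libraries (replicates 1 to 3), against 42.2, 39.5 and 35.6 FPKM in the control libraries. For Egf the most alike were Upf1, B4galt1, Nrip1, Sf1 and Tdrd7, with correlations of 0.972 to 0.994, and 13 genes were over 0.95. Upf1, a helicase of nonsense-mediated mRNA decay, was at 7.31, 6.80 and 11.1 FPKM in noggin libraries and at 16.8, 15.6 and 14.8 FPKM in control libraries. The 6 points share group and library, so these values are descriptions only.

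Outside the members, 74 genes of the pathway were tested from 5 lists, and 2 rose, 1 fell and 71 did not pass the test. Of all tested genes 1.75% were called higher and 0.695% lower. The median log2 fold change was -0.24, against -0.03 for all tested genes. Of the pathway values 48 were negative and 26 positive, against 5501 negative and 5143 positive over all tested genes. The tested pathway genes had a median transcript length of 3177 bases, against 2524 bases for all tested genes.

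Of 5 other family genes, Nrg4, a ligand of ErbB4, was the one tested. Nrg4 was at 1.02, 2.66 and 4.41 FPKM in noggin libraries and at 1.70, 2.02 and 1.88 FPKM in control libraries, with overlap (log2 fold change 0.26, limma adjusted p = 0.707). Its sign turned to -0.21 after rescaling, -0.10 after the length correction and -0.073 without noggin replicate 3. Epgn, Nrg2, Nrg3 and Erbb4 were not tested, and no value of Erbb4, the receptor of neuregulins and betacellulin, exceeded 0.0405 FPKM.

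Among 10 tested genes of ligand shedding and trafficking, 1 fell, 0 rose and 9 did not pass, with a median of -0.34. Over all tested genes 0.695% were called lower and 1.75% higher. Nrd1, which encodes nardilysin, a protease known to enhance the shedding of HB-EGF, was at 16.6, 21.8 and 15.6 FPKM in noggin libraries and at 33.6, 46.3 and 42.4 FPKM in control libraries. The log2 fold change was -1.14 (SE 0.228, limma adjusted p = 0.04997), on the edge of the threshold, and the call was lost after the length correction (-0.71, limma adjusted p = 0.126), without any 1 control library and without noggin replicate 1 or 3. It was also lost with either smaller pseudocount, without a filter, without the mean-variance trend and with the replicate block. Adam17, the main sheddase of amphiregulin and TGF-alpha, was at 5.72, 4.90 and 1.73 FPKM in noggin libraries and at 9.68, 9.29 and 10.8 FPKM in control libraries (log2 fold change -1.19, SE 0.395, limma adjusted p = 0.122). Adam9 was at -1.20 (limma adjusted p = 0.136). Rhbdl2, a rhomboid protease that cleaves membrane proteins, was at 5.86, 5.21 and 8.76 FPKM in noggin libraries and at 2.27, 1.98 and 2.31 FPKM in control libraries, at a log2 fold change of 1.23 without passing the test (limma adjusted p = 0.0816). The groups did not overlap in these 4 of the 10 genes, close to the 38.3% of all tested genes.

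Of 20 tested inhibitors and feedback regulators of ErbB signalling limma called 0, while 5 had an unadjusted p under 0.05, close to the 26.7% of all tested genes, and the median log2 fold change was -0.29. Lrig1, a transmembrane protein that promotes the degradation of ErbB receptors, was at 7.76, 19.0 and 6.36 FPKM in noggin libraries and at 37.0, 36.3 and 42.3 FPKM in control libraries. Its log2 fold change of -1.86 did not pass (SE 0.378, limma adjusted p = 0.0516). It passed with a filter of 5 FPKM, after rescaling, after quantile normalization and without noggin replicate 2 (-2.30, limma adjusted p = 0.0140), and was at -1.36 with the length correction (limma adjusted p = 0.0930). Of the 10644 tested genes, 820 were called lower after rescaling and 825 without noggin replicate 2. Errfi1, which encodes MIG6, a cytosolic inhibitor of the EGF receptor kinase that is induced by it, was at 50.0, 95.7 and 90.9 FPKM in noggin libraries and at 45.9, 34.8 and 42.1 FPKM in control libraries. Errfi1 had a value of 0.88 on that scale (SE 0.280, limma adjusted p = 0.114). Cblc, a ubiquitin ligase of the CBL family, was at 44.9, 43.2 and 44.3 FPKM in noggin libraries and at 31.3, 24.3 and 25.5 FPKM in control libraries (0.69, limma adjusted p = 0.0916), and Ptpn2, a tyrosine phosphatase, was at 0.60 (limma adjusted p = 0.156). The values of Cblc and Ptpn2 went to -0.0012 and -0.083 after rescaling.

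In the RAS-ERK and PI3K relay limma called 0 of 25 tested genes, 7 had an unadjusted p under 0.05, again close to the 26.7% of all tested genes, and 21 values were negative and 4 positive. The list median was -0.40, and -0.14 after the length correction. Gab1, a docking protein that couples ErbB receptors to PI3K, was at 4.19, 5.26 and 1.65 FPKM in noggin libraries and at 11.8, 11.4 and 11.1 FPKM in control libraries (-1.49, SE 0.377, limma adjusted p = 0.0816). Plcg1, a phospholipase recruited to activated receptors, was at 1.47, 2.62 and 0.418 FPKM in noggin libraries and at 5.97, 5.31 and 6.56 FPKM in control libraries (-1.57, SE 0.399, limma adjusted p = 0.0817). Sos2, a RAS exchange factor, and Akt2, a kinase of the PI3K pathway, were at -1.11 and -0.82 (limma adjusted p = 0.0810 and 0.105).

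Of 18 tested ERK-responsive genes 2 rose, 0 fell and 16 did not pass, and the list median was 0.04. Over all tested genes 1.75% were called higher and 0.695% lower. An unadjusted p under 0.05 was reached by 5 of the 18, close to the 26.7% of all tested genes. Plaur, which encodes the urokinase receptor, was at 59.6, 55.1 and 46.3 FPKM in noggin libraries and at 20.6, 22.1 and 16.3 FPKM in control libraries. Plaur rose by 1.41 on the log2 scale (SE 0.210, limma adjusted p = 0.0295), and 1.07 with the length correction (limma adjusted p = 0.04997). Ier3, an early response gene that restrains cell death, was at 40.0, 30.7 and 46.0 FPKM in noggin libraries and at 14.8, 14.0 and 13.5 FPKM in control libraries. It rose by 1.38 on the log2 scale (SE 0.223, limma adjusted p = 0.0330), and was at 0.86 with the length correction, without passing (limma adjusted p = 0.111). Neither gene was called after rescaling (0.71 for Plaur and 0.70 for Ier3), without noggin replicate 1 or without any 1 control library. The same held without a filter and without the mean-variance trend. Ccnd1, which encodes cyclin D1, was at 9.97, 3.40 and 13.2 FPKM in noggin libraries and at 3.33, 3.10 and 2.50 FPKM in control libraries (1.16, limma adjusted p = 0.164), and Jun, a subunit of AP-1, was at -0.67 (limma adjusted p = 0.137).

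**Figure D4:**
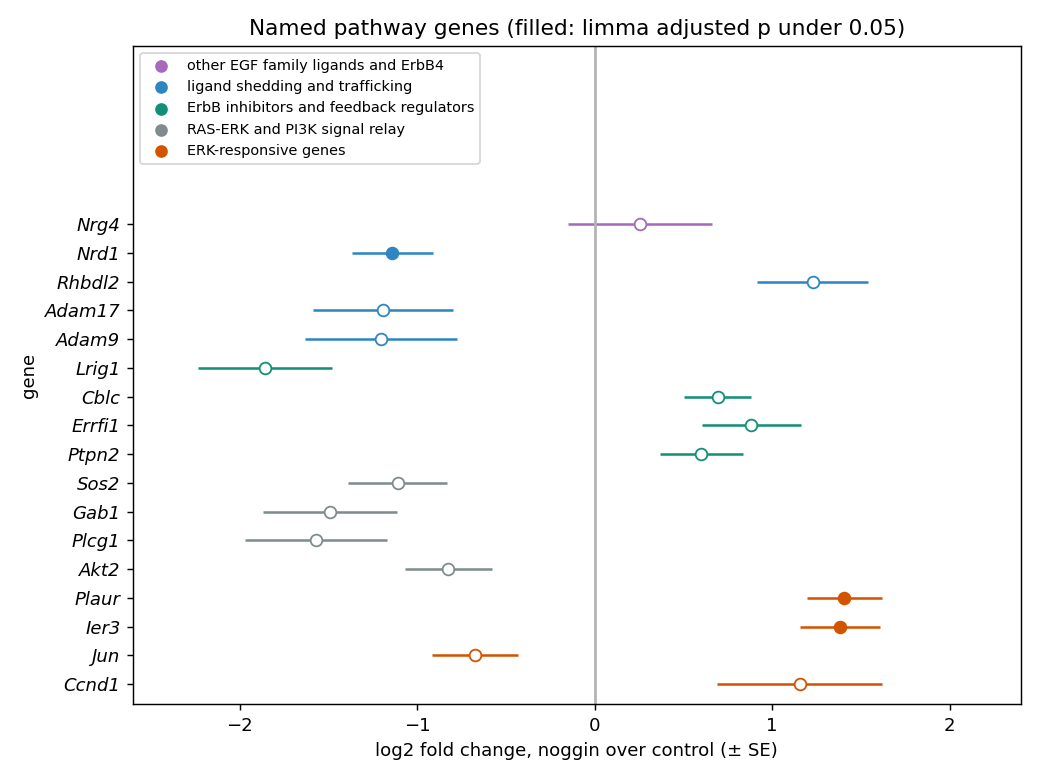
Log2 fold change of noggin over control (horizontal, ± SE from limma) of the 17 named pathway genes outside the family (vertical), coloured by list and filled for a limma adjusted p under 0.05. Plaur at 1.41, Ier3 at 1.38 and Nrd1 at -1.14 are the filled points.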

How the data were processed

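RNA was measured in sorted parietal cells of 3 noggin and 3 control mouse stomach samples. Per the labels' protocols, a SMART-Seq ultra low input kit was used on 1 ng or more of total RNA, and sequencing was single-end at 50 bases. The authors deposited FPKM per gene and replicate, and the submitters' processing notes name mm10, bcl2fastq and FastQC 0.10.0. No aligner, quantifier or annotation is named in them. Strand use is not stated, so antisense genes cannot be told apart.

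From these values log2(FPKM + 1) was fitted with limma 3.58.1 (R 4.3.3, mean-variance trend, group as the only term) for the 10644 genes that reached 1 FPKM in 3 or more libraries. Groups were taken from sample titles. The members and lists were chosen with earlier results of these data known. In each pathway list up to 4 genes were named, called genes first by fold change and then by unadjusted p; the 5 genes most like Areg and Egf were ranked by Pearson correlation, leaving out predicted genes. Erbb4, Epgn, Nrg2, Nrg3 and the single cell type markers were named after their values were seen. Coordinates and transcript lengths came from GENCODE M21 (GRCm38). Tested on simulated noggin and control libraries of 10644 genes, the fit recovered 4.60% of log2 changes of 1 and 51.8% of log2 changes of 2, and 3.75% of calls were false. At this recovery a gene that was not called is not shown to be unchanged. The simulation drew each gene on its own, with the same spread in both groups and no length trend. These rates may therefore not carry over to the real libraries. Alternatives were pseudocounts of 0.1 and 0.01, no filter, a filter of 5 FPKM, rescaling, quantile normalization, a length correction, no trend, a replicate block and leaving out each library.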

Additional observations from a re-analysis of the deposited data

How the results depend on the processing

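Across all tested genes the number called higher was 186 and lower 74. Higher and lower counts were 85 and 26 with a pseudocount of 0.1, 72 and 21 with 0.01, 8 and 4 without a filter, 70 and 25 with the length correction, and 66 and 17 without the mean-variance trend. Rescaling gave 820 lower and quantile normalization 174 lower. Leaving out 1 library gave 4 to 1187 higher and 5 to 825 lower, with the highest counts without noggin replicate 2. For the family, 0 members were called higher without a filter, after rescaling and after the length correction, 3 were called lower after rescaling, and leaving out 1 library gave 0 to 1 higher and 0 to 3 lower. Of the other pathway genes, 0 were higher without a filter, after rescaling and without the trend, and 1 with the length correction. The number lower was 0 with either smaller pseudocount, without a filter, with the length correction and without the trend, 2 with a filter of 5 FPKM, 11 after rescaling and 3 after quantile normalization. Leaving out 1 library gave 0 to 4 higher and 0 to 10 lower. The cause of these shifts was not tested, except that leaving out a library lowers the number of samples.

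The replicate numbers did not pair the libraries: deviations of same-numbered libraries correlated at 0.105, -0.141 and 0.00519, and noggin replicates 2 and 3 did not correlate best with their own number. With the replicate block 32 genes were lower, and the other pathway genes had 1 higher and 0 lower.

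Of the named genes, signs turned in 12 cases. After rescaling the values were -0.42 for Tgfa, -0.41 for Hbegf, -0.31 for Btc, -0.072 for Egfr, -0.0012 for Cblc, -0.21 for Nrg4 and -0.083 for Ptpn2. Quantile normalization gave -0.047 for Hbegf and the length correction -0.10 for Nrg4. Leaving out 1 library gave -0.31 to 0.44 for Tgfa, -0.080 to 0.85 for Egfr and -0.073 to 0.64 for Nrg4, with the lowest values without noggin replicate 3. None of these was called in either setting. Depth is unknown, so Ereg, Nrg1 and the other genes near 0 FPKM are not shown to be absent.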
